A study of Mus musculus with 6 samples.

Results

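Cholesterol and fatty acid synthesis genes were described across the hearts of wild-type (WT) and Rnd3 knockout (KO) mouse embryos. The set holds 32 genes chosen by name, and 31 of them had an array probe set carrying their symbol alone, out of 18193 genes named in that way. Acat2 had none and was not analysed here. All 31 were bright enough to be tested, on each of the 6 arrays, among 12712 genes tested in all. They comprise 16 enzymes of sterol synthesis, 6 genes of sterol sensing and transport, and 9 genes of fatty acid synthesis. Each gene was read from its probe set (the group of short probes for a transcript) with the highest mean log2 signal, so values of different genes are not set against each other.

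The hearts were taken at the embryonic stage E10.5, when the looped heart tube is forming chambers, from embryos of C57BL/6N background. The 3 KO embryo samples carry a gene-trap allele of Rnd3 (RhoE), a cassette inserted so that it breaks the gene's transcript, in all tissues. Rnd3 is a small GTP-binding protein that restrains the kinase ROCK1. The 3 WT samples carry no trap. The design text of the series calls the embryos littermate pairs and places the death of global KO embryos in the days from this stage on. No label ties a sample number to a litter or says whether an array holds a single heart or a pool, so p-values measure the spread between these arrays, and their number limits the precision.

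Mammalian cells build cholesterol from acetyl-CoA through mevalonate, squalene and lanosterol, and fatty acids from the same acetyl-CoA through malonyl-CoA, followed by elongation and desaturation of the chain. Both routes are controlled by the SREBP transcription factors. Srebf2 encodes the form that mainly drives sterol genes, and Srebf1 the forms that mainly drive fatty acid genes. SREBP precursors are escorted by Scap out of the endoplasmic reticulum when sterol is low, and are held back there by the Insig proteins when it is high. Embryos make much of their own cholesterol, which also modifies hedgehog proteins.

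The arrays were first checked as a whole. Rnd3 read 862 to 954 in WT and 5.89 to 121 in KO (limma adjusted p = 0.0344). All 10 cardiomyocyte markers were above the low-signal limit, which is the 40th percentile of each array (44.5 to 52.8), on every array. Xist, which marks female tissue, read 10251 to 12474 in WT but 539, 8884 and 28.4 on KO arrays 1, 2 and 3, so the sex of the tissue is not balanced between the genotypes. The Gapdh signal at the 3' end over that at the 5' end, which reflects how intact the RNA was, lay between 1.09 and 1.13 in WT and between 0.939 and 0.993 in KO. The same ratio for Actb overlapped between the genotypes, at 2.35 to 2.62 in WT and 2.22 to 2.54 in KO. The part of RNA integrity in the results was not tested.

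Stearoyl-CoA desaturase 1 was lower in KO hearts, and it was the only member past the threshold. With limma, a linear model that shares the spread across genes, and Benjamini-Hochberg adjustment over all 12712 genes to 0.05, 1 of 31 members fell, 0 rose and 30 did not pass. Over all genes tested, 1.27% passed, 0.787% higher and 0.488% lower in KO. Among fatty acid synthesis genes 8 of 9 had a negative log2 fold change, with a median of -0.23. Sterol synthesis enzymes were divided, 9 negative and 7 positive, with a median of -0.10. Leaving out 1 array moved that median between -0.12 (without KO array 1) and -0.03 (without KO array 2, where the median of all genes was -0.03 too). It was -0.04 without WT array 1, -0.05 without WT array 2 and -0.06 without KO array 3. The sensing and transport genes were all negative on their brightest probe sets, 6 of 6, with a median of -0.11, though Insig2 was at -0.01. Averaging the probe sets of a gene turned Scap, Insig2 and Stard4 positive. Over all genes tested the median was -0.04 and 56.2% were negative.

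The groups did not overlap for 9 of the 31 members, 6 lower and 3 higher in KO, against 26.3% of all genes tested (15.5% lower, 10.8% higher). The 31 members thus lie close to that background as a whole. By role they were unevenly placed, since 4 of 9 fatty acid genes lay wholly lower and none higher, whereas 3 of 16 sterol enzymes lay wholly higher and 1 wholly lower. Whether these lists differ from other genes was not tested.

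**Figure D1:**
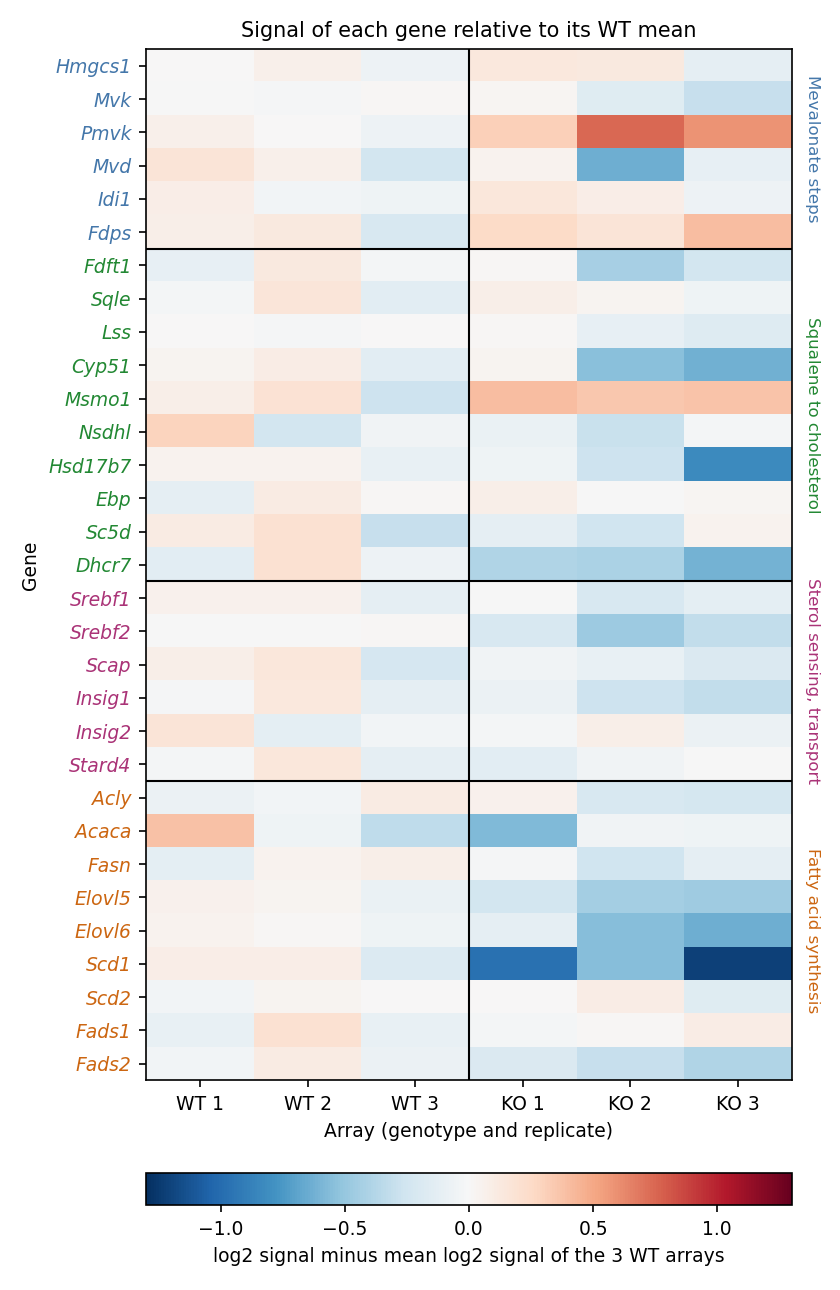
Heat map of the 31 genes (rows, grouped by role) on the 6 arrays (columns), coloured by log2 signal minus the gene's mean over the 3 WT arrays. All KO columns are on the blue side for Scd1, Elovl5, Elovl6, Fads2, Srebf2 and Dhcr7 and on the red side for Pmvk, Fdps and Msmo1. Other rows, whose groups overlap, are blue on some KO arrays, such as Cyp51 and Mvd, or on all of them, such as Hsd17b7 and Acaca. Most of the rest are pale.

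Fatty acid synthesis starts with Acly, ATP citrate lyase, which makes cytosolic acetyl-CoA. Its brightest probe set gave 5384, 5534 and 6078 in WT and 5888, 4913 and 4827 in KO, with overlapping groups (log2 fold change -0.13, SE 0.10, limma adjusted p = 0.495). A dimmer Acly probe set went the other way without overlap, from 3008, 3173 and 2442 in WT to 3200, 4186 and 3714 in KO (0.37, SE 0.12). The direction of Acly therefore depends on the probe set.

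Acaca, acetyl-CoA carboxylase, which makes malonyl-CoA, gave 727, 539 and 446 in WT and 376, 542 and 536 in KO. Its WT arrays spread widely and hold the KO values of arrays 2 and 3 (-0.23, SE 0.19, adjusted p = 0.544, limma). Fasn, the synthase that builds palmitate, gave 1881, 2123 and 2162 in WT and 2028, 1714 and 1894 in KO (-0.13, SE 0.10, limma adjusted p = 0.501). Its 95% interval, -0.35 to 0.09, leaves room for a modest decrease, for no change and for a small increase.

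Elongases and desaturases act on the finished chain. Scd1, which puts the first double bond into palmitate and stearate, gave 422, 422 and 352 in WT and 202, 271 and 171 in KO. Every KO array was below every WT array. The mean signal went from 399 ± 40.2 to 215 ± 50.9 (SD, n = 3 per group), 1.88-fold lower on the log2 scale of the fit (-0.91, SE 0.18, limma adjusted p = 0.0421). A further Scd1 probe set, close to the low-signal limit at 47.5 to 87.1 over the 6 arrays, showed overlapping groups (-0.07, SE 0.35).

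The Scd1 call rested on the choices of the analysis. With quantile normalization, with median centring or without KO array 1 or 2 the adjusted p was 0.0303 to 0.0377. Keeping all dim genes gave 0.0689, testing each probe set separately 0.0524, and a variance with no intensity trend 0.206. Without WT array 1, 2 or 3 it was 0.162, 0.192 and 0.12, and without KO array 3 it was 0.135. Averaging the probe sets of the gene gave -0.49 (adjusted p = 0.349), and the log2 Xist signal as a covariate gave -0.56 (adjusted p = 0.146). KO array 2, whose Xist signal of 8884 is nearest to that of WT, read 271 for Scd1, below the lowest WT array at 352. The part of the sex of the tissue in the Scd1 result was not tested.

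Scd2, the desaturase most abundant in brain and embryo, showed no such difference. It gave 15642, 16409 and 16126 in WT and 16099, 17205 and 14362 in KO, with the WT values inside the KO range (-0.02, 95% interval -0.19 to 0.15). Its sign turned with median centring (0.03). A dimmer Scd2 probe set was wholly lower in KO, from 295, 312 and 288 to 212, 143 and 221 (-0.66, SE 0.18), and another had 0.03.

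Elovl5, the elongase of polyunsaturated chains, gave 7772, 7688 and 7044 in WT and 6332, 5516 and 5444 in KO. The groups did not overlap, and the mean went from 7502 ± 398 to 5764 ± 493 (SD, n = 3 per group; -0.38, SE 0.09, limma adjusted p = 0.0542). It missed the threshold here and passed with quantile normalization (adjusted p = 0.0425), a stricter filter (0.0447), array weights (0.0241) or without KO array 1 (0.0185). Its other probe set read 4958 to 5376 in WT and 4685 to 5038 in KO (-0.10, SE 0.08), so the groups overlapped there.

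Elovl6, which lengthens palmitate to stearate, gave 1599, 1574 and 1492 in WT and 1430, 1058 and 1004 in KO (-0.44, SE 0.13, limma adjusted p = 0.102). KO array 1 lay just below the WT arrays and the other KO arrays far below. Without KO array 1 the gene passed (-0.59, adjusted p = 0.0141). Its 3 probe sets were each wholly lower in KO, the others at -0.26 and -0.28.

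Fads2, the delta-6 desaturase of polyunsaturated fatty acids, gave 754, 830 and 734 in WT and 677, 628 and 588 in KO (-0.29, SE 0.11, limma adjusted p = 0.171). The groups did not overlap on this probe set, but did on its other 2 (-0.13 and -0.27). Fads1, the delta-5 desaturase encoded next to Fads2, gave 1086, 1328 and 1083 in WT and 1140, 1171 and 1238 in KO. The KO arrays lay within the WT range (0.03, 95% interval -0.21 to 0.27), and the sign turned when WT array 1 or 3 or KO array 3 was left out and with the Xist covariate.

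**Figure D2:**
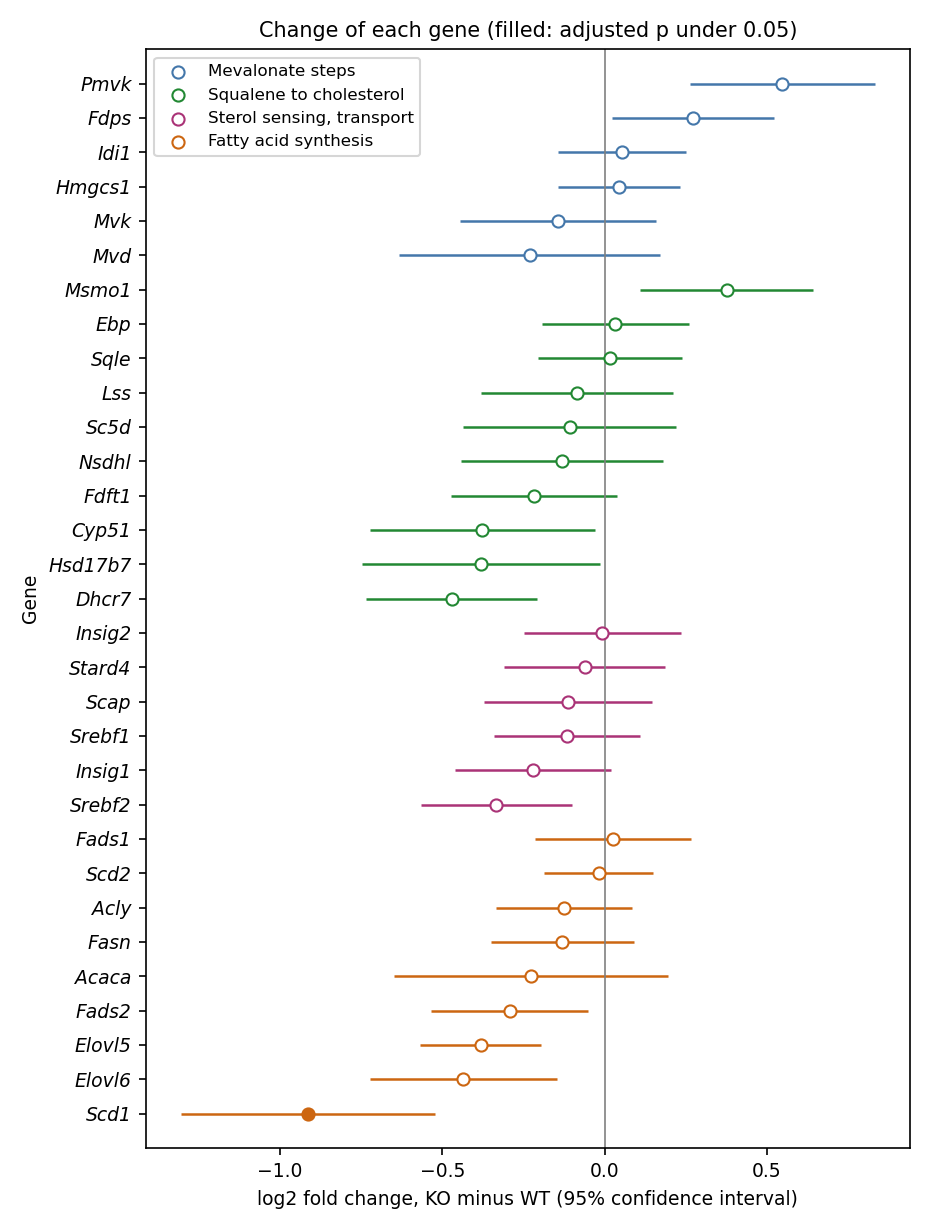
Log2 fold change, KO minus WT, of each of the 31 genes (horizontal axis) with its 95% confidence interval, grouped by role and coloured as in the key; a filled point has an adjusted p under 0.05. Scd1 at -0.91 is the filled point, and the intervals of 11 genes, Scd1 among them, do not reach 0.

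Averaged over the 9 genes, the log2 signal relative to the WT mean was 0.02, 0.05 and -0.07 on the WT arrays and -0.23, -0.25 and -0.35 on the KO arrays. Leaving Scd1 out gave -0.14, -0.21 and -0.24 in KO and -0.06 to 0.04 in WT. Over the 16 sterol enzymes the same average was 0.04, 0.07 and -0.10 in WT and 0.05, -0.10 and -0.11 in KO, with overlap. Over all genes tested it was -0.01 to 0.01 in WT and -0.07 to -0.02 in KO. The fatty acid average was thus lower on all 3 KO arrays and the sterol average was lower than every WT array only on KO array 3. In these bulk samples fewer cells of a type and less RNA per cell cannot be told apart.

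Markers of liver and yolk sac endoderm, tissues with active lipid synthesis, were lower in KO as well. All 10 tested of the 15 listed had a negative log2 fold change. Of these, 2 fell, Alb and Habp2, where 0.488% of all genes did (limma adjusted p = 0.049997 and 0.0389). Habp2 was below the limit on every KO array, so it was at least 1.78-fold lower. It entered the test through its 3 WT arrays alone, so the filter favoured its direction, and its fall adds no support. The summed signal over the 13 matched endoderm markers was 1896, 3696 and 7954 in WT and 776, 2288 and 573 in KO, and no marker was at 0. By this sum WT array 1 had less than KO array 2. By the average log2 signal of the 10 tested markers relative to the WT mean the order was reversed (-0.59 on WT array 1 and -0.65 on KO array 2). Scd1 read 422 on WT array 1 and 271 on KO array 2, and whether it follows these markers was not tested. Among 10 markers of foregut and surface epithelium the median over the 8 tested was -0.43 and none passed.

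Of 8 tested macrophage markers 1 rose, where 0.787% of all genes tested did. It was the lysozyme gene Lyz2, with 261, 203 and 232 in WT against 368, 828 and 707 in KO (1.38, SE 0.25, limma adjusted p = 0.0374). In this list 6 markers had a positive log2 fold change and 2 a negative one. The macrophage average relative to the WT mean was 1.10 on KO array 2 and -0.05 on both other KO arrays. None of the 10 cardiomyocyte markers passed. Of these, 7 had a negative log2 fold change and 3 a positive one, namely Tnni1 (0.16), Tnnt2 (0.03) and Myl4 (0.02). Wholly lower in KO were 3 of the 10, Myh6 (-0.25), Nkx2-5 (-0.29) and Ryr2 (-0.26), where 15.5% of all genes tested were. The part of any of these cell types in the results was not tested.

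**Figure D3:**
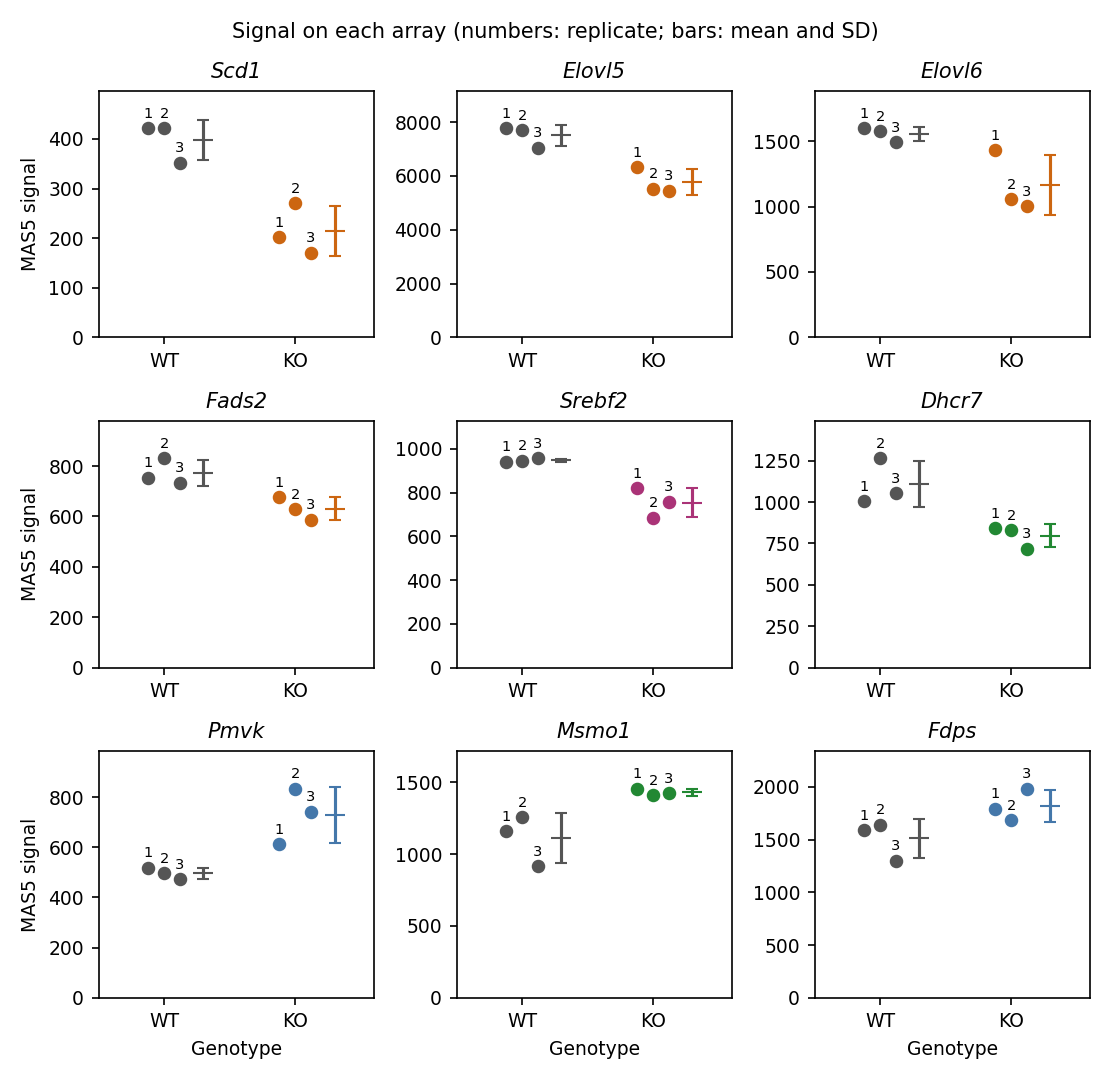
MAS5 signal (vertical axes, from 0) of the 9 genes whose groups did not overlap, by genotype; points are arrays with their replicate number, and the bars give the mean and SD of 3 arrays. Scd1 goes from 399 in WT to 215 in KO on average, and Pmvk, Msmo1 and Fdps lie higher in KO.

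The mevalonate steps of sterol synthesis held 2 of the 3 genes that were wholly higher in KO. Hmgcs1, which joins acetyl-CoA and acetoacetyl-CoA, gave 9193, 9589 and 8723 in WT and 10042, 9979 and 8434 in KO. The groups overlapped (0.05, SE 0.09, limma adjusted p = 0.802), and the sign turned with quantile normalization (-0.01). Another of its probe sets, of like brightness, was wholly lower in KO, from 10133, 10132 and 10164 to 9507, 8319 and 7513 (-0.27, SE 0.09).

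Mvk, mevalonate kinase, read 307 to 313 in WT and 250 to 315 in KO (-0.14, SE 0.14). Pmvk, the kinase of the next step, gave 519, 497 and 472 in WT and 613, 834 and 742 in KO. Every KO array was above every WT array, a 1.46-fold higher signal that missed the threshold (0.55, SE 0.13, limma adjusted p = 0.0609). With each array centred on its median (0.60, adjusted p = 0.0428), with array weights (0.52, adjusted p = 0.0323) or without KO array 1 (0.67, adjusted p = 0.0179) Pmvk passed. Mvd, the decarboxylase that follows, read 345 to 456 in WT and 262 to 418 in KO (-0.23, SE 0.18), and its other probe set had 0.23.

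Idi1, which isomerises isopentenyl diphosphate, read 2861 to 3157 in WT and 2837 to 3287 in KO (0.05, SE 0.09). Fdps, which makes farnesyl diphosphate, gave 1592, 1643 and 1302 in WT and 1793, 1686 and 1984 in KO. The groups were apart, with the highest WT and the lowest KO array close together (0.27, SE 0.11, limma adjusted p = 0.211).

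From squalene on, most enzymes had negative values. Fdft1, squalene synthase, gave 3654, 4295 and 3860 in WT and 3970, 2908 and 3333 in KO (-0.22, SE 0.12, limma adjusted p = 0.319). Sqle, squalene epoxidase, read 1716 to 2111 in WT and 1816 to 1985 in KO, inside the WT range (0.02, SE 0.10; -0.05 without WT array 3). Lss, which closes the sterol rings, read 267 to 272 in WT and 241 to 273 in KO (-0.09, SE 0.13). A further Lss probe set was wholly lower in KO, from 242, 247 and 222 to 156, 189 and 181 (-0.44, SE 0.16).

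Cyp51, the lanosterol demethylase, gave 1410, 1464 and 1251 in WT and 1402, 942 and 892 in KO. KO array 1 sat with the WT arrays and the other KO arrays below them (-0.38, SE 0.16, limma adjusted p = 0.211). Without KO array 1 the gene passed (-0.58, adjusted p = 0.0203), but its next probe set showed no such drop (-0.04, SE 0.14). Msmo1, the sterol C4 methyl oxidase that acts after it, gave 1159, 1256 and 917 in WT and 1456, 1409 and 1422 in KO. It was wholly higher in KO (0.38, SE 0.12, limma adjusted p = 0.122), with the KO arrays nearly equal and WT array 3 lowest.

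The X-linked genes Nsdhl and Ebp encode a C4 decarboxylase and the sterol isomerase. Nsdhl read 688 to 992 in WT and 666 to 803 in KO (-0.13, SE 0.14; 0.01 without WT array 1). Ebp read 769 to 894 in WT and 832 to 879 in KO, within the WT range (0.03, SE 0.10; -0.02 without WT array 1). Hsd17b7, the C3 ketoreductase, gave 1407, 1406 and 1271 in WT and 1309, 1129 and 768 in KO, with KO array 3 far below the rest (-0.38, SE 0.17, limma adjusted p = 0.229). The next probe set of Hsd17b7 showed no such drop (0.01, SE 0.12), and its dimmer ones had -0.33 and -0.46, all with overlapping groups. Sc5d, the C5 desaturase, read 449 to 636 in WT and 462 to 573 in KO (-0.11, SE 0.15).

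Dhcr7 acts at the end of the route, reducing 7-dehydrocholesterol to cholesterol. It gave 1006, 1264 and 1054 in WT and 842, 831 and 719 in KO, 1.39-fold lower with no overlap (-0.47, SE 0.12, limma adjusted p = 0.0698). It missed the threshold and passed with array weights (adjusted p = 0.0307) or without KO array 1 (adjusted p = 0.0456). Dhcr7 has a single probe set on the array, as have Pmvk, Sqle, Nsdhl, Ebp, Srebf1, Insig1 and Fasn.

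Of the 6 sensing and transport genes 1 was wholly lower in KO, Srebf2, where 15.5% of all genes tested were. Its brightest probe set read 941, 946 and 956 in WT, a narrow range, and 820, 685 and 757 in KO, all lower (-0.33, SE 0.11, limma adjusted p = 0.115). The other probe set repeated the order, at 645, 645 and 736 in WT and 507, 372 and 451 in KO (-0.61, SE 0.14, limma adjusted p = 0.0666 among all probe sets). Neither passed. Srebf1 read 1108 to 1248 in WT and 1035 to 1192 in KO (-0.12, SE 0.10).

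Scap, the escort of the SREBP precursors, read 876 to 1134 in WT and 895 to 989 in KO (-0.11, SE 0.12; 0.11 when averaged with a probe set below the limit on every array). Insig1, itself a target of SREBP, gave 1323, 1473 and 1240 in WT and 1277, 1115 and 1071 in KO (-0.22, SE 0.11, limma adjusted p = 0.281). Insig2 read 891 to 1089 in WT and 925 to 1028 in KO, a value at zero (-0.01, SE 0.11) whose sign turned under each centring. A dimmer Insig2 probe set was wholly higher in KO, from 195, 216 and 232 to 256, 375 and 335 (0.57, SE 0.17). Stard4, a cytosolic sterol carrier, read 615 to 742 in WT and 608 to 668 in KO (-0.06, SE 0.11), while its next probe set was wholly higher (0.30, SE 0.11).

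Promoter sequences are shown for genes with different readings: Srebf2, Elovl5 and Elovl6, lower in KO, Msmo1, higher, and Hmgcs1, overlapping. Each is the 250 bases before the annotated start in RefSeq (GRCm38.p6), 5′ to 3′ on the gene's strand. Capitals mark CCAAT, the box bound by NF-Y, and TCACCCCA, the core of a sterol regulatory element (SRE) bound by SREBP, on either strand.
Srebf2, chr15:82147019-82147268, plus strand: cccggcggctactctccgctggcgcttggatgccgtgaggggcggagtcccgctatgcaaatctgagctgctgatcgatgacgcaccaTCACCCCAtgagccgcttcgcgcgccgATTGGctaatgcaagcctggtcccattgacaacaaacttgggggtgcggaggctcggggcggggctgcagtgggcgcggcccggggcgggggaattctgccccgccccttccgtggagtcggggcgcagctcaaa
Hmgcs1, chr13:119690101-119690350, plus strand: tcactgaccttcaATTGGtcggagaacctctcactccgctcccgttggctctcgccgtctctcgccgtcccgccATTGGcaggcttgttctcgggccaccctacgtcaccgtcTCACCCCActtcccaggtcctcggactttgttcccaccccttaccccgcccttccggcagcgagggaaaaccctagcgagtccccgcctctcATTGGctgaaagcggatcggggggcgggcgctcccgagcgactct
Msmo1, chr8:64733579-64733828, minus strand: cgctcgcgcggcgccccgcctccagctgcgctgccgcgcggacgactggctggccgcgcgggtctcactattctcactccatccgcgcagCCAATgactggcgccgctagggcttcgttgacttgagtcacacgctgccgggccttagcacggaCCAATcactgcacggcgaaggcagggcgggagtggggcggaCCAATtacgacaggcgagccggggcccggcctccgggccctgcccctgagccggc
Elovl5, chr9:77917115-77917364, plus strand: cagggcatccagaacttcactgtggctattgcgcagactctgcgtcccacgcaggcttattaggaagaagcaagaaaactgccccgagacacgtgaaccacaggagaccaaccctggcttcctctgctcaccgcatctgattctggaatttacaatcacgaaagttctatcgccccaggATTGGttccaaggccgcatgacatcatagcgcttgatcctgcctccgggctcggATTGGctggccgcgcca
Elovl6, chr3:129532136-129532385, plus strand: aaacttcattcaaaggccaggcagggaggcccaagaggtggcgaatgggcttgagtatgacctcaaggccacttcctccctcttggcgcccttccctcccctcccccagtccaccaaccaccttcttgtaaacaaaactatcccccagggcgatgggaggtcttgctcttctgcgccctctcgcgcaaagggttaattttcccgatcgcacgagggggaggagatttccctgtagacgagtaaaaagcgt

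The Srebf2 and Hmgcs1 windows each hold 1 TCACCCCA, with CCAAT boxes beside it, 1 in Srebf2 and 3 in Hmgcs1. Msmo1 has 3 CCAAT boxes, Elovl5 has 2 and Elovl6 has none. A promoter was listed for 25 of the 32 genes, Scd1 not among them, and a gene with several starts counted as holding a motif if any window did. CCAAT on either strand lay in 13 of 14 sterol enzyme genes, the exception being Acat2, which has no array value here, 4 of 5 sensing and transport genes and 2 of 6 fatty acid genes, against 37.5% of 27025 genes in the table. TCACCCCA lay in 2 of the 25, Hmgcs1 and Srebf2, against 1.54% of genes. The fuller SRE, TCACNCCAC, which overlaps it, lay in Hmgcs1 alone, against 1.22%. The E-box CACGTG lay in 6 of the 25 (Hsd17b7, Sc5d, Dhcr7, Scap, Insig1 and Elovl5), against 6.86%. Genes with CCAAT were read on both sides of 0, such as Msmo1 (0.38) and Dhcr7 (-0.47), neither past the threshold.

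Probe sets of a gene often disagreed. The 31 genes had 73 probe sets, of which 65 were bright enough to be tested. Besides the brightest ones these were 34 in 20 genes, and 20 of the 34 had the sign of the brightest and 14 the other. Among the 34, 6 were wholly lower and 3 wholly higher in KO, where 13.5% and 10.4% of all 23339 tested probe sets were, 23.9% together. When limma was run on separate probe sets 0 of the 65 passed, against 0.63% of all. At an unadjusted p under 0.05 on the brightest probe sets 11 of 31 genes passed, 8 lower and 3 higher, where 20.3% of all genes did, 11.8% lower and 8.54% higher. All tested probe sets were negative for Srebf2, Elovl5, Elovl6, Scd1, Fads2, Acaca, Fdft1, Lss and Mvk, and positive for Idi1 and Fads1. Srebf2 and Elovl6 were the genes with several tested probe sets that were wholly lower on each of them.

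**Figure D4:**
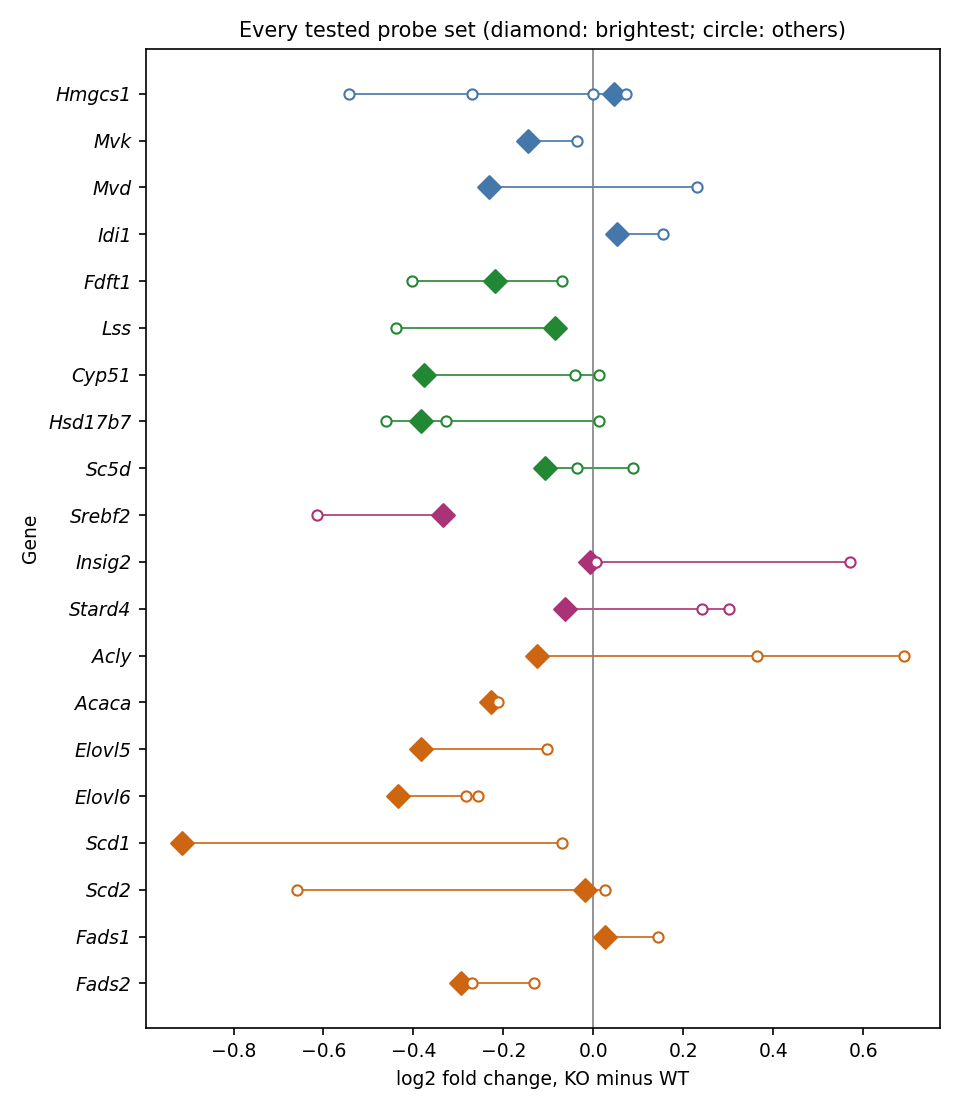
Log2 fold change, KO minus WT (horizontal axis), of every tested probe set of the 20 genes with more than 1; diamonds are the brightest probe set and circles the others, coloured by role as before. The circles of Acly, Insig2 and Stard4 lie right of their diamonds and reach 0.69, 0.57 and 0.30, and the pair of Srebf2 points lies at -0.33 and -0.61.

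Arrays of a genotype also differed from each other in these genes. WT array 3 was the lowest WT array for 20 of the 31 members (64.5%), against 34.3% of all genes tested. In KO, array 1 was the highest for 21 members (67.7%, against 36.2%), and array 3 the lowest for 17 (54.8%, against 32.6%). For the sterol enzymes alone KO array 1 was the highest for 12 of 16 and WT array 3 the lowest for 10 of 16. The sterol average of KO array 1 (0.05) lay with WT arrays 1 and 2 (0.04 and 0.07), and that of WT array 3 (-0.10) with KO arrays 2 and 3.

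Of the other genes of both routes none passed the threshold. Of 25 further sterol genes, covering late enzymes, SREBP processing and sterol transport, 19 had a probe set of their own and were tested. None passed by limma, while 7 had an unadjusted p under 0.05, 6 of them lower, and 9 were wholly lower and 2 wholly higher in KO. Over all genes tested 11.8% were lower and 8.54% higher at that p, and 15.5% were wholly lower and 10.8% wholly higher. Osbp, an oxysterol-binding lipid exchanger, read 2160 to 2383 in WT and 1393 to 1890 in KO (-0.43, SE 0.12, limma adjusted p = 0.0895). Erlin2, which binds the SREBP-Scap-Insig complex in the endoplasmic reticulum, read 913 to 957 in WT and 652 to 819 in KO (-0.37, SE 0.11, limma adjusted p = 0.103). The cholesterol exporter gene Abca1 read 545 to 688 in WT and 439 to 524 in KO (-0.42, SE 0.13). Lbr, a nuclear envelope protein with sterol reductase activity, was higher, at 5092 to 5573 in WT and 6027 to 6654 in KO (0.25, SE 0.08).

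Of 32 further fatty acid and lipid genes 26 were tested. None passed by limma, 5 had an unadjusted p under 0.05, all lower, and 6 were wholly lower and none wholly higher, against the same shares of 11.8% and 15.5% lower over all genes. Hacd3, a dehydratase of the elongation cycle, gave 2741, 2656 and 2432 in WT and 2049, 1883 and 1924 in KO (-0.42, SE 0.09). It missed the threshold narrowly (limma adjusted p = 0.0502) and passed with quantile normalization (adjusted p = 0.0460). Hacd2, another dehydratase of that cycle, read 2362 to 2841 in WT and 1952 to 2218 in KO (-0.33, SE 0.10, limma adjusted p = 0.103). Dgat1 and Dgat2, which complete triglyceride synthesis, had -0.42 (SE 0.13) and -0.41 (SE 0.15). Other genes of chain elongation were not uniformly lower. Elovl2 was wholly lower (-0.35, SE 0.18), while Elovl1 (-0.25), Elovl4 (-0.23), Elovl7 (-0.77, SE 0.45), Tecr (-0.17), Hsd17b12 (0.07) and Hacd1 (0.0041) had overlapping groups. These were named after their values were seen.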

How the data were processed

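The deposited values are linear intensity signals, 1 for each probe set and array. The authors used Affymetrix Expression Console and MAS5, per the submitters' processing notes; their versions were not given in the sources used here. The mean of each array after trimming 2% at each end was 500, so no further scaling was applied. MAS5 subtracts mismatch signal, which makes dim probe sets noisy.

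From these values 64 control probe sets were left out, log2 was taken, and probe sets with exactly 1 symbol (34945 of 45037) were kept. A gene was its probe set with the highest mean over 6 arrays, tested if above the 40th percentile on at least 3 arrays. KO was compared with WT in R 4.3.3 by limma 3.58.1, using lmFit and eBayes with an intensity trend, and the script was tested on simulated data. The text names all 31 matched members, Rnd3, Xist, marker genes past the threshold, and the 4 genes of each further list with the smallest p. It also names some cardiomyocyte markers and further genes of chain elongation, picked after their values were seen. Members and lists were chosen with earlier results of these data known. Promoters came from a RefSeq table, searched with Python 3.11.15. Figures were drawn with matplotlib 3.10.9. Alternatives covered normalization, filter, floor, probe set choice, variance model, weights, block, a sex covariate and leaving out each array.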

Additional observations from a re-analysis of the deposited data

How the results depend on the processing

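Of 558 values of the 31 members under 18 alternatives, 510 kept their direction and their side of the threshold. That count is no measure of robustness. The filter, floor, separate probe set, trend and block alternatives cannot alter a member's fold change, and 30 members did not pass to begin with. Centring on the median of all probe sets was chosen after seeing the data. Scd1 was lower under every alternative run, from -1.09 to -0.49. The number of genes past the threshold, 162 here, was 312 with each array centred on its median (253 higher and 59 lower, against 100 and 62) and 83 (67 higher) with the median of all probe sets. It was 1 without the filter, 256 with a stricter filter, 0 with the mean of all probe sets, 83 with separate tests of each probe set, 1 without an intensity trend, 542 with array weights and 6 with the Xist covariate. It ranged from 0 to 916 when an array was left out. The number of fatty acid synthesis genes past it, 1 here, was 2 with quantile normalization, a stricter filter or array weights, and 0 without the filter, with the mean of all probe sets, with separate tests of each probe set, without an intensity trend or with the Xist covariate. It ranged from 0 to 3 when an array was left out, and that of sterol synthesis enzymes, 0 here, likewise from 0 to 3, and was 1 with each array centred on its median, 0 with centring on all probe sets and 2 with array weights. The fatty acid median ranged from -0.33 (without WT array 3) to -0.19 when an array was left out. Without KO array 1, 3 sterol enzymes (Cyp51, Dhcr7 and Pmvk) and 3 fatty acid genes (Elovl5, Elovl6 and Scd1) passed. No fatty acid gene passed without any of the WT arrays in turn or without KO array 3, nor any sensing and transport gene under any alternative run. The sign of values near 0 turned: Hmgcs1 had -0.0089 with quantile normalization, -0.14 with averaged probe sets and -0.0099 with array weights, and Sqle had -0.033 with array weights. Averaged probe sets gave 0.11 for Scap, 0.19 for Insig2, 0.16 for Stard4 and 0.34 for Acly. Insig2 also had 0.021 with quantile normalization, 0.043 and 0.052 with the centrings and 0.069 with the Xist covariate, where Scd2 had 0.12 and Fads1 -0.013. Scd2 had 0.030 and 0.040 with the centrings. With an array left out the values ranged from -0.053 to 0.097 for Sqle, from -0.25 to 0.011 for Nsdhl, from -0.024 to 0.084 for Ebp, from -0.070 to 0.075 for Insig2, from -0.12 to 0.012 for Stard4, from -0.079 to 0.052 for Scd2 and from -0.023 to 0.12 for Fads1. The causes were not tested. In the Xist fit KO array 2 has a weight of 0.87 in the KO term, against 0.34 and -0.21 for KO arrays 1 and 3. In the fit with a replicate block 189 genes passed, Scd1 among them (adjusted p = 0.0298), and no member's call differed. Same-numbered arrays barely deviated together (correlations 0.02, 0.06 and 0.02, with WT array 1 nearest to KO array 3). Deviations from means of 3 arrays cannot decide whether the numbers mark litters. No label ties the numbers to litters, and the main fit did not pair them. Signals near the low-signal limit, as of the dimmer Scd1 probe set, limit what can be read.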
